A study of Mus musculus with 31 samples.

Results

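*Dkk2*, *Dkk3*, *Sfrp1*, *Sfrp2*, *Sfrp4*, *Wif1*, *Nkd1*, *Nkd2*, *Axin2* and *Lef1* are Wnt antagonists and Wnt feedback genes, and these 10 of the 39179 genes in the count table are followed here. They were selected on tumor values: the set was picked because *Nkd2* and *Dkk3* were lower in tumors of glucocorticoid receptor (GR) knockout cells than in parental tumors. The rule had no numeric threshold. In canonical Wnt signaling, a ligand bound to Frizzled and LRP receptors protects beta-catenin from degradation, and beta-catenin then works with TCF and LEF factors at target genes. Many secreted antagonists bind either the ligands or the LRP co-receptors, while feedback genes are switched on by the pathway and act back on it inside the cell. In the melanocyte lineage, Wnt signaling is known for its part in specifying melanocytes from the neural crest.

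The study asked how the synthetic glucocorticoid (GC) clobetasol propionate acts on melanoma, and whether that action needs GR in the tumor cells. All 8 groups derive from the mouse melanoma line 20967, which was made on a C57BL/6 background carrying Nras+LSL-G12D and Tyr::CreERT2+/o, so that the *Nras* allele and the melanocyte-directed Cre are common to parental and GR-KO samples. The GR-KO cells are a single clone, so that loss of GR and any other property of that clone cannot be told apart. Tumors grew in wild-type C57BL/6 mice, so GR-competent host cells are part of each whole tumor that was sequenced. Of the 20 tumors, 5 were parental with control cream (cetraben), 5 parental with GC, 5 GR-KO with control cream and 5 GR-KO with GC, the GC being clobetasol propionate as a 0.05% ointment applied 3 times a week. The control was thus a cream and the GC an ointment, so drug and base cannot be told apart in tumors. Of the 11 cell cultures, 3 were parental in DMSO, 2 parental in GC, 3 GR-KO in DMSO and 3 GR-KO in GC, all for 48 hours. The dose of clobetasol in culture is 10 µM in the treatment labels and 1 µM in the library names, and this was not settled here.

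Total counts per sample ran from 15528066 to 26386770 in tumors and from 14441166 to 22463188 in cultures. Genes with any count numbered 13442, 14887, 15150, 16980 and 14335 in GR-KO control tumors. The range was 15224 to 16799 in GR-KO GC, 15578 to 16801 in parental control and 15918 to 16983 in parental GC tumors. The floor used here, 3 counts in a library, equals 0.114 to 0.193 CPM in tumors and 0.134 to 0.208 CPM in cultures by total counts, before TMM scaling, and every other CPM given here is TMM-scaled. Counting intervals and floors cover counting error only, while the intervals of fitted fold changes include the spread between samples. All 10 members passed the filter on low counts in tumors, and 4 of 10 passed it in cultures, namely *Nkd2*, *Dkk2*, *Dkk3* and *Lef1*. *Nr3c1*, which encodes GR, was counted at its 3′ end at 33.2, 30.0 and 35.6 CPM in parental DMSO cultures and at 24.8, 21.0 and 16.4 CPM in GR-KO DMSO cultures. Of 12 melanocyte markers, *Tyr* and *Gpr143* had 0 counts in all 20 tumors, and 8 of 12 (*Tyr*, *Dct*, *Mlana*, *Sox10*, *Kit*, *Gpr143*, *Slc45a2* and *Oca2*) had 0 counts in all 11 cultures. In both sample types the most abundant of these markers was *Mitf*.

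The tumor comparison between genotypes is the one that chose the members, so the members are described there without a p. *Dkk3* is a secreted glycoprotein counted here with the antagonists by its Dickkopf family, and its effect on Wnt signaling was not tested. It measured 67.6, 95.2, 92.7, 67.5 and 94.5 CPM in parental control tumors and 37.7, 39.4, 33.9, 37.1 and 39.5 CPM in GR-KO control tumors. With GC it measured 72.7, 75.6, 105, 76.2 and 86.6 CPM in parental tumors and 47.3, 43.3, 53.4, 29.5 and 32.2 CPM in GR-KO tumors. Every one of the 10 GR-KO tumors was below every one of the 10 parental tumors for *Dkk3*, at a fitted log2 fold change of -1.15 (SE 0.184) under control cream and -1.01 (SE 0.184) under GC.

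*Nkd2*, a Naked cuticle protein that binds Dishevelled and dampens the Wnt signal, measured 99.8, 124, 95.6, 98.8 and 86.4 CPM in parental control tumors and 33.9, 49.9, 33.0, 33.4 and 54.3 CPM in GR-KO control tumors. With GC it measured 123, 197, 176, 165 and 167 CPM in parental tumors and 98.1, 99.3, 80.4, 58.4 and 61.9 CPM in GR-KO tumors. Under either treatment the GR-KO tumors lay below the parental ones without overlap, at a fitted log2 fold change of -1.30 (SE 0.202) under control cream and -1.06 (SE 0.200) under GC. The call rule used elsewhere (edgeR adjusted p under 0.05 and a fold of at least 1.5, both directions) marks 2 of 10 as lower in control tumors, where 2.25% of all tested genes passed, and 2 of 10 as lower in GC-treated tumors, where 0.634% did. The members were selected on this contrast, so nothing is read from those counts. In whole tumors, fewer cells of a type and less RNA per cell cannot be told apart.

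The values of *Dkk2*, *Sfrp1*, *Sfrp2*, *Sfrp4*, *Wif1*, *Nkd1*, *Axin2* and *Lef1* overlapped between genotypes under both treatments. In control tumors the fitted log2 fold change, GR-KO against parental, was 0.44 for *Dkk2*, 0.46 for *Sfrp1* and 0.22 for *Lef1*. It was -4.69 for *Nkd1*, -2.22 for *Axin2*, -1.48 for *Sfrp4*, and -0.36 for *Sfrp2* and *Wif1*. Under GC it was 1.04 for *Nkd1*, 0.59 for *Lef1*, 0.53 for *Dkk2* and 0.49 for *Sfrp2*. It was -1.84 for *Axin2*, -0.39 for *Sfrp1*, -0.26 for *Wif1* and -0.03 for *Sfrp4*. *Nkd1*, the paralog of *Nkd2*, had 10, 1, 11, 20 and 0 counts in parental control tumors against 0, 1, 0, 0 and 0 counts in GR-KO control tumors. *Axin2*, a scaffold of the beta-catenin destruction complex and a classical Wnt target, had 23, 12, 1, 22 and 8 counts in parental control tumors against 1, 0, 0, 16 and 0 counts in GR-KO control tumors, with 16 counts from replicate 4 alone. *Sfrp4* averaged 2.93 ± 1.25 CPM (SD, n = 5) in parental and 1.04 ± 0.927 CPM (SD, n = 5) in GR-KO control tumors, again with the highest GR-KO value, 2.47 CPM, in replicate 4. That tumor also had the most genes with any count in its group.

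**Figure D1:**
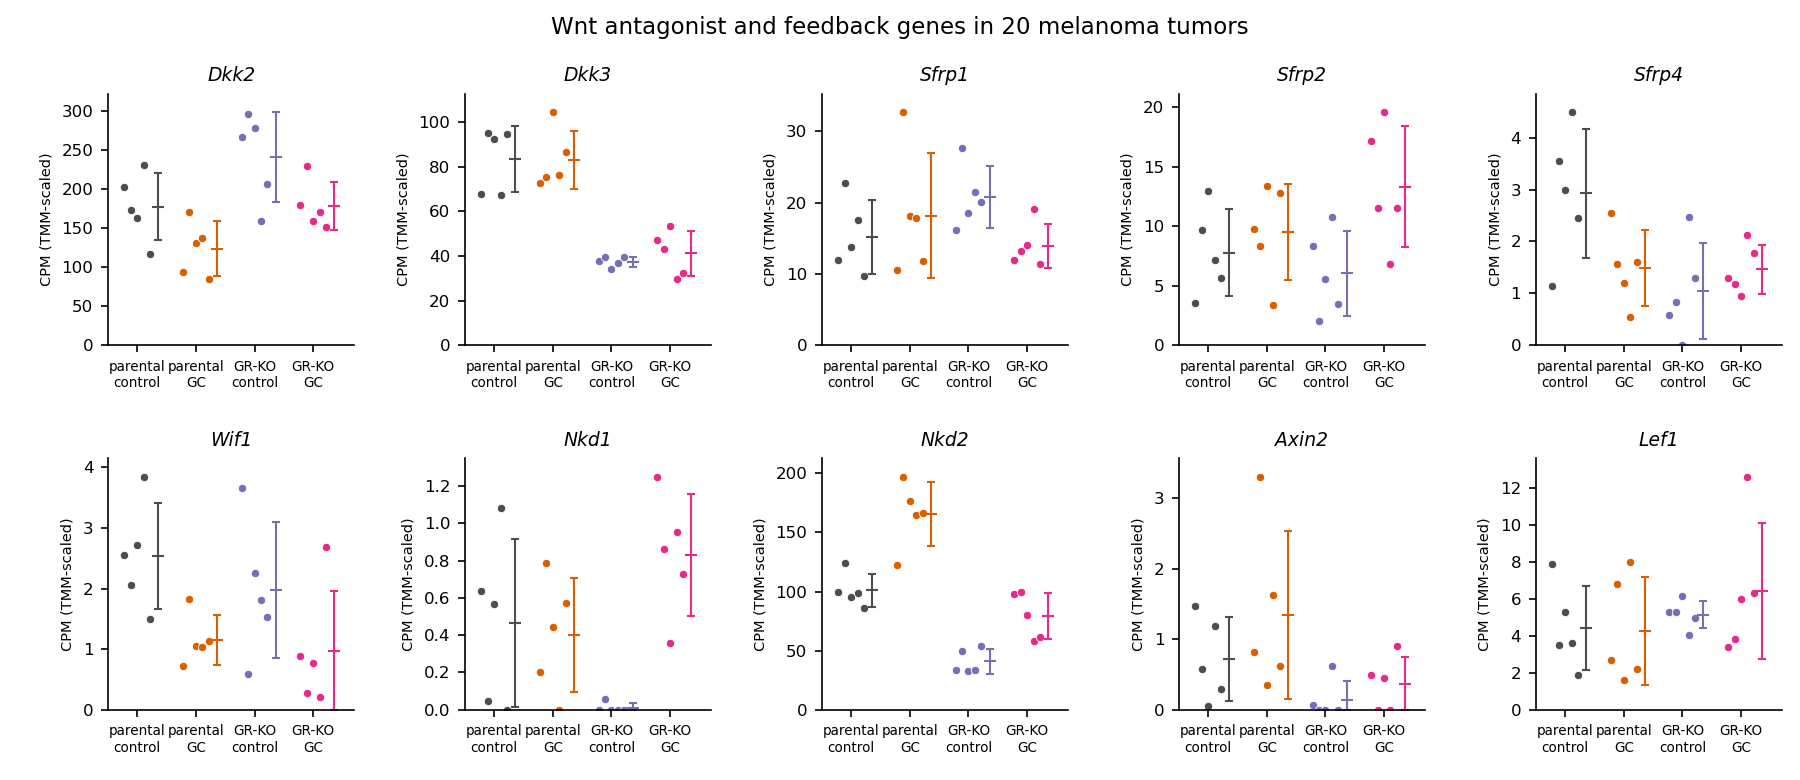
CPM (TMM-scaled) of the 10 members in each of 20 tumors by group, each point a tumor, with the bar at the mean and whiskers of 1 SD, cut at 0. *Dkk3* and *Nkd2* sit lower in GR-KO than in parental tumors, the contrast that chose the members, and the mean of *Nkd2* is higher with GC than with control cream in both genotypes.

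What GC did to the members was asked within each genotype. All 4 tumor groups, the GR-KO control tumors included, also entered the contrasts that chose *Nkd2* and *Dkk3*, so the GC effects of these members in either genotype, and the difference of those effects, are not independent of that choice and are described without a p. In parental tumors, 0 of 10 members passed edgeR's threshold (adjusted p under 0.05 and a fold of at least 1.5, both directions), where 0.779% of all tested genes did. At an unadjusted p under 0.05, 2 of 10 members passed in edgeR, as did 14.1% of all tested genes, and DESeq2 called 1 member. Since these counts, and those below for GR-KO tumors, include *Nkd2* and *Dkk3*, nothing is read from the place of either in them. In GR-KO tumors, 2 of 10 members were called higher by edgeR and 0 lower, where 6.42% of all tested genes passed in both directions together, and *Nkd2* is 1 of these 2, a place from which nothing is read either.

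*Nkd2* is described here by its values. It averaged 40.9 ± 10.3 CPM (SD, n = 5) in GR-KO control tumors and 79.6 ± 19.3 CPM (SD, n = 5) in GR-KO GC tumors, with all 5 GC tumors above all 5 control tumors. The fitted difference was 0.96 on the log2 scale (SE 0.200), against a control level that is among the values *Nkd2* was chosen by. In parental tumors *Nkd2* averaged 101 ± 13.9 CPM (SD, n = 5) with control cream and 165 ± 27.1 CPM (SD, n = 5) with GC. There 5 of 5 GC tumors were above the control mean and 4 of 5 above every control tumor, and the fitted log2 fold change was 0.71 (SE 0.199). The *Nkd2* difference between genotypes in the GC effect, parental minus GR-KO, was -0.25 on the log2 scale (SE 0.281).

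*Nkd1* had 28, 16, 8, 18 and 16 counts in the 5 GR-KO GC tumors, against the single count in the 5 GR-KO control tumors given above. GR-KO control replicates 1, 2, 3 and 5 also had fewer genes with any count than every GR-KO GC tumor. The part of this in the low *Nkd1* counts was not tested. All 5 GC tumors were above all 5 control tumors, and 86 counts against 1 gave a ratio of 85.8 with a 95% counting interval of 15.0 to 3428. The edgeR log2 fold change of *Nkd1* was 5.53 (SE 1.48) with an adjusted p of 0.0279 (BH over all genes), a fitted size that depends on the prior count, and the exact two-sided permutation p was 0.00794, the smallest that 5 against 5 can give. DESeq2 gave *Nkd1* a log2 fold change of 5.65 with an adjusted p of 0.00332 at its default alpha and no adjusted p at an alpha of 0.05. In edgeR its adjusted p lay between 0.0509 and 0.0658 without GR-KO control replicate 1, 3 or 5 or without GR-KO GC replicate 1, 3 or 5. It was 0.0575 with only the groups compared in the fit, so *Nkd1* did not pass in any of these fits. Its log2 fold change ran from 5.24 to 7.05 over the fits that left out a tumor, and from 5.51 to 5.65 under the other settings. Without GR-KO control replicate 2, the control tumor with the single count, the log2 fold change was 7.05 and the call was kept (edgeR adjusted p 0.0415). In parental tumors *Nkd1* had 10, 1, 11, 20 and 0 counts with control cream and 4, 15, 10, 0 and 10 counts with GC, which overlap. The difference of the *Nkd1* GC effects, parental minus GR-KO, was -5.74 on the log2 scale (SE 1.82) with an edgeR adjusted p of 0.114, and -7.26 without that control tumor.

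Among the secreted antagonists, none of the 6 passed edgeR's threshold for GC in either tumor genotype with all tumors in the fit. Of all tested genes, 0.779% passed in parental and 6.42% in GR-KO tumors, and nothing is read from the place of *Dkk3* among the 6. *Dkk2*, which binds LRP co-receptors, measured 203, 174, 163, 230 and 117 CPM in parental control tumors and 93.1, 171, 131, 137 and 84.5 CPM in parental GC tumors. In GR-KO tumors it measured 267, 296, 278, 159 and 206 CPM with control cream and 180, 229, 159, 171 and 152 CPM with GC. In both genotypes 5 of 5 GC tumors were below the mean of their controls, but the groups overlapped. The *Dkk2* log2 fold change was -0.52 (SE 0.221, edgeR adjusted p 0.283) in parental and -0.44 (SE 0.221, edgeR adjusted p 0.225) in GR-KO tumors.

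*Sfrp2*, a secreted Frizzled-related protein that binds Wnt ligands, measured 8.35, 2.03, 5.60, 10.8 and 3.44 CPM in GR-KO control tumors and 17.2, 11.5, 19.6, 6.83 and 11.5 CPM in GR-KO GC tumors. All 5 GC tumors were above the control mean, and the groups overlapped in the range of GC replicate 4 and control replicates 1 and 4. Its log2 fold change was 1.14 (SE 0.441) with an edgeR adjusted p of 0.115 and an exact permutation p of 0.0397. In parental tumors its log2 fold change was 0.29 (SE 0.436) with an exact permutation p of 0.556. Without GR-KO control replicate 4, *Sfrp2* passed edgeR's threshold as well. *Sfrp1*, of the same family, averaged 20.8 ± 4.33 CPM (SD, n = 5) in GR-KO control tumors and 13.9 ± 3.05 CPM (SD, n = 5) in GR-KO GC tumors, a log2 fold change of -0.58 (SE 0.290) with an edgeR adjusted p of 0.220 and an exact permutation p of 0.0238. In parental tumors *Sfrp1* averaged 15.2 ± 5.16 CPM (SD, n = 5) with control cream and 18.2 ± 8.80 CPM (SD, n = 5) with GC, a log2 fold change of 0.26 (SE 0.290) in the other direction with an exact permutation p of 0.579. The difference of the *Sfrp1* GC effects, parental minus GR-KO, was 0.84 on the log2 scale (SE 0.410) with an edgeR adjusted p of 0.251.

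*Wif1*, which binds Wnt ligands directly, measured 2.55, 2.06, 2.73, 3.84 and 1.49 CPM in parental control tumors and 0.714, 1.83, 1.06, 1.03 and 1.14 CPM in parental GC tumors. All 5 GC tumors were below the control mean, with overlap between GC replicate 2 and control replicate 5. The *Wif1* log2 fold change was -1.13 (SE 0.647) with an edgeR adjusted p of 0.441, and the exact permutation p was 0.0159. In GR-KO tumors its log2 fold change was -1.02 (SE 0.649) with an exact permutation p of 0.135, and -1.86 without GR-KO GC replicate 5. *Sfrp4* gave exact permutation p of at least 0.0873 for GC in each genotype, and the fitted log2 fold change of *Dkk3* with GC was -0.01 in parental and 0.13 in GR-KO tumors.

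*Axin2* and *Lef1*, the remaining feedback gene and the transcription factor that works with beta-catenin, did not pass for GC in tumors. *Axin2* ranged from 0 to 63 counts over the 20 tumors, and *Lef1* from 1.63 to 12.6 CPM, with the highest value in GR-KO GC replicate 4. The difference of GC effects between genotypes was called by edgeR for 0 of 10 members in tumors (adjusted p under 0.05 and a fold of at least 1.5, both directions), where 0.195% of all tested genes passed. At an unadjusted p under 0.05 edgeR gave 1 of 10 members, *Nkd1*, beside 20.1% of all tested genes, and DESeq2 called 0. *Nkd2* and *Dkk3* are among the 10, and nothing is read from their place in these counts.

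**Figure D2:**
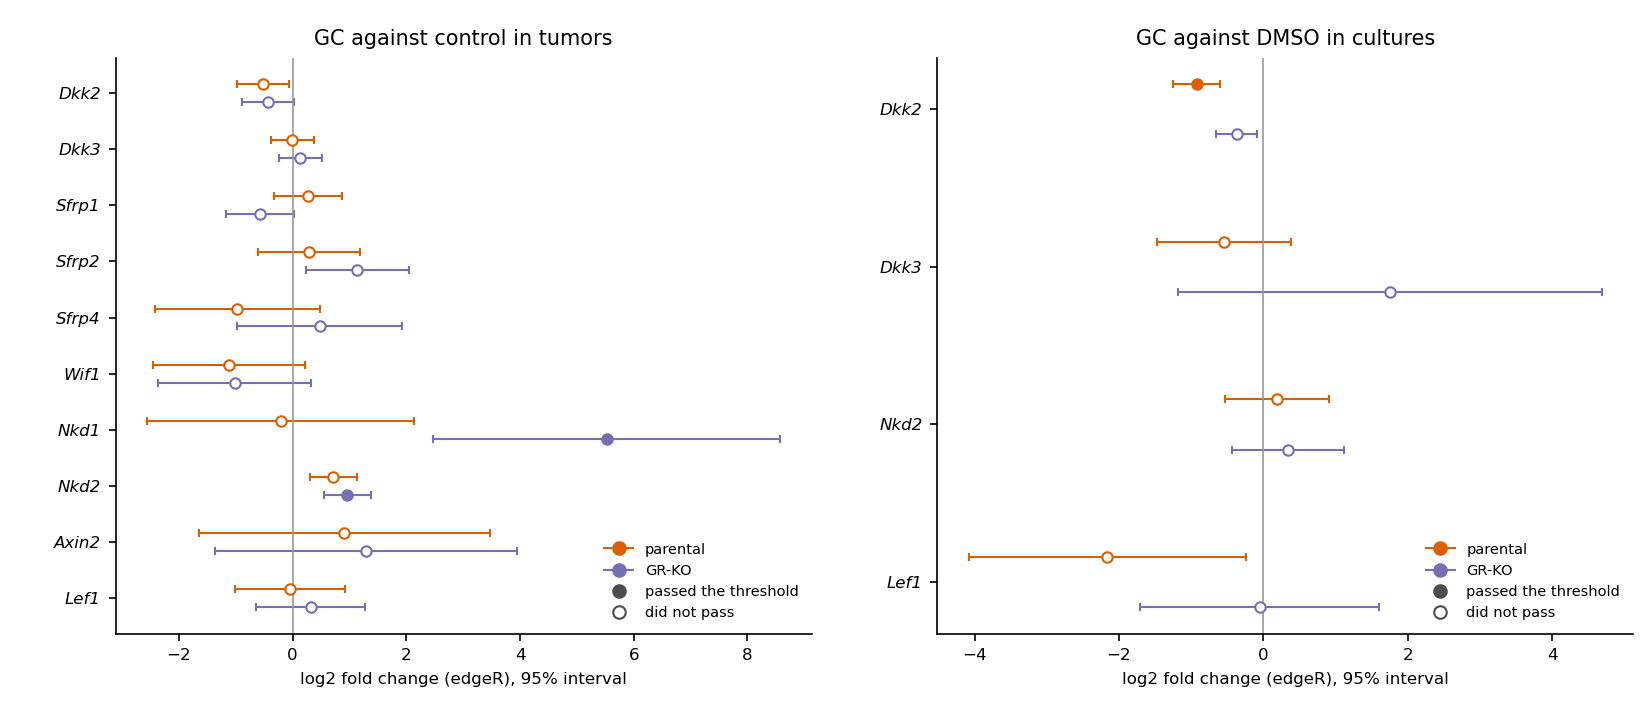
Fitted log2 fold change of each tested member for GC against control cream in tumors and against DMSO in cultures (edgeR), with 95% intervals. Filled points passed the threshold, which were *Nkd1* and *Nkd2* in GR-KO tumors and *Dkk2* in parental cultures. In tumors nothing is read from whether *Nkd2* or *Dkk3* is filled.

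The cultures hold tumor cells without a host, and their values were not used by the rule, although they come from the same parental line and the same GR-KO clone as the tumors. Between genotypes in DMSO, edgeR called 3 of the 4 tested members lower and 0 higher in GR-KO cultures (adjusted p under 0.05 and a fold of at least 1.5), where 8.22% of all tested genes passed in both directions together. In GC the same rule called 2 of 4 lower and 0 higher, where 5.55% passed. *Dkk3*, 1 of the members in both counts, passed the filter on low counts only through its 5 parental cultures, so it had to differ between genotypes once tested, and nothing is read from the counts of members. These comparisons share no samples with each other.

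*Dkk3* measured 22.8, 27.7 and 21.9 CPM in parental DMSO cultures, whereas the 3 GR-KO DMSO cultures held 0, 1 and 0 counts. The 1173 counts against 1 gave a ratio of 1391 with a 95% counting interval of 249 to 54991. In GC, the 2 parental cultures measured 18.9 and 14.1 CPM and the 3 GR-KO cultures held 4, 0 and 0 counts. So 5 of 6 GR-KO cultures had at most 1 *Dkk3* count, and every parental culture had at least 274. No p is given for *Dkk3* here, since no GR-KO culture reached the level the filter asks for.

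*Nkd2* measured 18.1, 19.1 and 14.5 CPM in parental and 1.30, 0.573 and 1.45 CPM in GR-KO DMSO cultures. In GC it measured 16.4 and 22.9 CPM in parental and 1.31, 1.09 and 1.83 CPM in GR-KO cultures. All 6 GR-KO cultures lay below all 5 parental cultures, with 15.6-fold lower mean CPM in DMSO (fitted log2 -3.96, SE 0.347, edgeR adjusted p 4.74e-05) and 13.9-fold lower mean CPM in GC (fitted log2 -3.81, SE 0.357, edgeR adjusted p 7.77e-05). Exact permutation tests cannot go below 0.1 with 3 cultures against 3 or against 2, and *Nkd2* gave 0.1 in both media. Within a genotype *Nkd2* did not pass for GC in culture, with log2 fold changes of 0.19 (95% interval -0.53 to 0.90) in parental and 0.34 (95% interval -0.43 to 1.12) in GR-KO cells, against the 0.71 and 0.96 given for tumors, a difference that was not tested.

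*Dkk2* was the only 1 of 4 tested members called for GC in parental cultures. It measured 98.5, 96.3 and 77.9 CPM in parental DMSO, 49.4 and 46.4 CPM in parental GC, 54.7, 59.1 and 48.3 CPM in GR-KO DMSO and 42.0, 40.6 and 43.0 CPM in GR-KO GC cultures. Parental DMSO cultures were the highest of the 4 groups without overlap, parental GC and GR-KO DMSO cultures overlapped, and GR-KO GC cultures were the lowest. *Dkk2* fell by 0.92 on the log2 scale with GC in parental cells (SE 0.148, 2 of 2 cultures below every DMSO culture, edgeR adjusted p 0.0124), where 0.878% of all tested genes passed (adjusted p under 0.05 and a fold of at least 1.5, both directions). That call was lost without parental DMSO replicate 1 (adjusted p 0.0583) and with only the groups compared in the edgeR fit (0.0954). It was also lost without parental GC replicate 1 or 2, fits that leave 1 culture in that group and take their spread from other groups. The *Dkk2* log2 fold change ran from -1.02 to -0.88 over the fits that left out a culture. With only the groups compared it was -0.92.

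*Dkk3* also had both parental GC cultures below every parental DMSO culture, at a log2 fold change of -0.55 (SE 0.424) with an edgeR adjusted p of 0.704.

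In GR-KO cells edgeR called 0 of 4 tested members for GC, where 0% of all tested genes passed (adjusted p under 0.05 and a fold of at least 1.5, both directions). At an unadjusted p under 0.05 there was 1 member, *Dkk2*, among 237 genes (1.89% of those tested), and DESeq2 called 0 genes. *Dkk2* had a log2 fold change of -0.37 (SE 0.129) there, with all 3 GC cultures below all 3 DMSO cultures. The difference of GC effects between genotypes was called by edgeR for 0 of 4 members in cultures, where 0.295% of all tested genes passed (adjusted p under 0.05 and a fold of at least 1.5, both directions). For *Dkk2* that difference, parental minus GR-KO, was -0.56 on the log2 scale (SE 0.194) with an edgeR adjusted p of 0.460; it was the 1 of 4 members at an unadjusted p under 0.05, beside 8.58% of all tested genes, and DESeq2 called 0 members. Between genotypes *Dkk2* was lower in GR-KO cells in DMSO (log2 -0.75, SE 0.129, edgeR adjusted p 0.00381) and had a log2 fold change of -0.19 (95% interval -0.51 to 0.12) in GC. The parental DMSO cultures enter both the first of these and the GC effect in parental cells.

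*Lef1* measured 3.45, 4.31 and 4.29 CPM in parental DMSO and 0.276 and 1.45 CPM in parental GC cultures. In GR-KO cultures it measured 0.415, 0.668 and 2.37 CPM in DMSO and 0.456, 0.756 and 2.15 CPM in GC. The 3 parental DMSO cultures were above all 8 others, both parental GC cultures included, and the other 3 groups overlapped. *Lef1* did not pass edgeR's threshold for GC in parental cells (log2 -2.16, SE 0.876, adjusted p 0.502) or between genotypes in DMSO (log2 -1.80, SE 0.740, adjusted p 0.161). The first of these was -1.47 without parental GC replicate 1 and -3.83 without parental GC replicate 2, and the second -2.87 without GR-KO DMSO replicate 3.

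The 6 members that failed the filter in cultures were near or at 0. *Axin2* had 14, 5 and 5 counts in parental DMSO and 13 and 7 counts in parental GC cultures, and 0 counts in all 6 GR-KO cultures. With 3 counts over the whole GR-KO group put in place of 0, parental cells were 9.49-fold higher in DMSO and 10.1-fold higher in GC. These folds have no interval and are not lower limits. *Wif1* had 3, 0 and 0 counts in parental DMSO and 2 and 12 counts in parental GC cultures, and 0 in all 6 GR-KO cultures. *Sfrp2* had 0 counts in all 11 cultures, *Sfrp1* had 4 and 2 counts in a parental DMSO and a parental GC culture, *Sfrp4* had 1 and 4 counts in a parental DMSO and a parental GC culture, and *Nkd1* had 5 counts in a parental DMSO culture, with 0 in the rest.

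**Figure D3:**
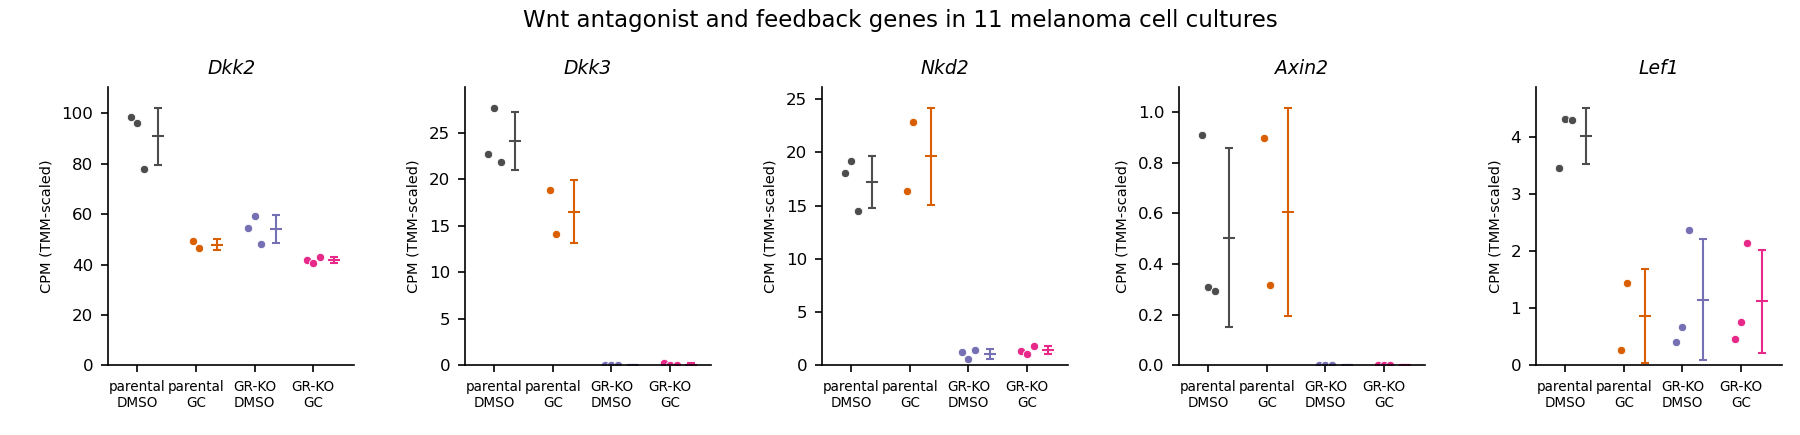
CPM (TMM-scaled) of *Dkk2*, *Dkk3*, *Nkd2*, *Axin2* and *Lef1* in each of 11 cultures by group, each point a culture, with the bar at the mean and whiskers of 1 SD, cut at 0. *Dkk3* and *Axin2* are at or near 0 in all 6 GR-KO cultures, and *Dkk2* is highest in the 3 parental DMSO cultures.

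The members were set beside 92 other genes of the pathway in 6 lists (other antagonists, ligands, receptors, the R-spondin axis, intracellular components and other targets). Of these, 77 were tested in tumors and 47 in cultures. For GC in parental tumors edgeR called 0 of 77 (7 at an unadjusted p under 0.05, beside 14.1% of all tested genes, and 1 by DESeq2), with a median log2 fold change of -0.13 beside 0.00 over all tested genes. For GC in GR-KO tumors it called 2 higher and 1 lower of 77, where 6.42% of all tested genes passed, with a median of 0.05 beside 0.05 over all tested genes. The co-receptor *Lrp6* rose from 16.8 ± 6.01 to 36.9 ± 8.29 CPM (SD, n = 5 each) and the secreted target *Wisp1* from 71.5 ± 23.5 to 118 ± 14.1 CPM (SD, n = 5 each), while the beta-catenin cofactor *Bcl9l* fell from 254 ± 98.6 to 140 ± 18.6 CPM (SD, n = 5 each). For the difference between genotypes in tumors edgeR called 0 of 77 (13 at an unadjusted p under 0.05, beside 20.1% of all tested genes, and 1 by DESeq2). In the described genotype contrast, 2 of 77 were lower in GR-KO control tumors, the ligand *Wnt5a* at -0.81 and *Lrp6* at -1.10 on the log2 scale. Of all tested genes, 2.25% passed there, so nothing is read from that count. In GC tumors 0 of 77 passed, beside 0.634% of all tested genes (6 at an unadjusted p under 0.05 in edgeR, beside 11.4% of all tested genes, and 2 by DESeq2).

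In cultures, edgeR called 2 of 47 pathway genes lower with GC in parental cells, where 0.878% of all tested genes passed. *Tcf7l2*, a TCF factor, fell from 70.3 ± 9.94 (SD, n = 3) to 43.5 ± 1.13 CPM (SD, n = 2), and the target *Lbh* from 114 ± 7.10 (SD, n = 3) to 49.8 ± 5.33 CPM (SD, n = 2). With GC in GR-KO cells edgeR called 0 of 47 (0 at an unadjusted p under 0.05, 0 by DESeq2). *Lbh* was also the 1 of 47 called for the difference between genotypes, where 0.295% of all tested genes passed, at -1.28 on the log2 scale (SE 0.222, edgeR adjusted p 0.0415). Between genotypes in DMSO, 5 of 47 were lower in GR-KO cells and 0 higher, where 8.22% of all tested genes passed, with a median log2 fold change of 0.04 beside 0.01 over all tested genes. The ligand *Wnt7b* went from 115 ± 36.7 to 14.4 ± 3.72 CPM (SD, n = 3 each), *Lgr6* from 4.68 ± 0.905 to 0.814 ± 0.439 CPM (SD, n = 3 each) and *Bcl9* from 22.5 ± 3.02 to 13.8 ± 0.327 CPM (SD, n = 3 each). The receptor *Ror2* had 148 counts against 4, a ratio of 43.9 with a 95% counting interval of 16.8 to 163. *Wisp2* had 151 counts against 0, which is 59.7-fold with 3 counts over the whole GR-KO group put in place of 0, without an interval. *Ror2* and *Wisp2* were at most at 0.191 and 0 CPM in GR-KO DMSO cultures and passed the filter on low counts through the parental cultures, so nothing is read from their place among the 5, or from that of *Ror2* in GC. In GC, 3 of 47 were lower in GR-KO cells (*Kremen1* at -1.04, *Wnt7b* at -3.36 and *Ror2* at -4.31 on the log2 scale) and 2 higher (*Tcf7l2* at 0.71 and *Lbh* at 0.94), where 5.55% of all tested genes passed, with a median of -0.01 beside 0.02 over all tested genes.

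Markers of other cell types moved with some of the same groups, and their part in the members' values was not tested. Between genotypes in cultures, 8.22% of all tested genes passed in DMSO and 5.55% in GC, in both directions together. There 6 of 8 tested fibroblast markers were lower in GR-KO cells in DMSO and 5 of 8 in GC by edgeR, and 0 higher. Of these, *Dcn*, *Fbln1* and *Postn* had 0 counts in all 6 GR-KO cultures and passed the filter only through parental cultures, so nothing is read from their place in the counts, while *Col1a1*, *Col3a1* and *Col6a3* measured at least 0.505 CPM in every GR-KO culture. The 12 fibroblast markers summed to 332, 193 and 298 CPM in parental DMSO, 245 and 218 CPM in parental GC, 80.9, 87.9 and 72.1 CPM in GR-KO DMSO and 89.7, 64.6 and 65.7 CPM in GR-KO GC cultures. *Col3a1* was the most abundant of them in cultures and in tumors, and *Dpt* had 0 counts in all 11 cultures. The 12 melanocyte markers summed to 9.23, 10.0 and 11.9 CPM in parental DMSO and 4.83, 3.10 and 4.25 CPM in GR-KO DMSO cultures. The other lists in cultures gave, in DMSO, 1 of 1 tested melanocyte marker lower (*Mitf*, log2 -1.36), 1 of 5 mural markers higher and 1 lower (*Notch3*, with 1 count over the 6 GR-KO cultures and the same limit), 1 of 2 endothelial markers lower, 1 of 1 adipocyte marker higher, and 0 of 2 keratinocyte, 0 of 3 muscle, 0 of 2 Schwann cell and 0 of 2 macrophage markers by edgeR (at an unadjusted p under 0.05 these last 4 gave 0, 1, 1 and 0, and DESeq2 called 0 in each). In GC they gave *Mitf* lower (log2 -1.02), 1 of 5 mural markers higher and 1 lower (again *Notch3*), 1 of 2 Schwann cell markers lower (*Pmp22*, log2 -0.87), and 0 of 2 endothelial, 0 of 2 keratinocyte, 0 of 1 adipocyte, 0 of 3 muscle and 0 of 2 macrophage markers by edgeR (at an unadjusted p under 0.05 these last 5 gave 2, 1, 0, 0 and 0, and DESeq2 called 0, 1, 0, 0 and 0). Of 8 T cell markers 0 were tested in cultures, and 7 of 8 had 0 counts in all of them. With GC in parental cultures edgeR called 0 of 2 keratinocyte markers and 0 of 24 markers of the other lists, beside 0.878% of all tested genes. At an unadjusted p under 0.05 these gave 0 and 2 (DESeq2 0 each). Mural markers summed to 2564 to 4559 CPM in DMSO and 4606 to 5460 CPM in GC. Schwann cell markers summed to 123 to 127 CPM and 165 to 176 CPM, and adipocyte markers to 0.246 to 0.715 CPM and 3.48 to 6.21 CPM. These sums did not overlap between media.

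Beside the lower *Nkd2* and *Dkk3* of GR-KO control tumors, 2 of 8 mural and 2 of 8 endothelial markers were higher and 1 of 12 fibroblast and 1 of 10 keratinocyte markers lower than in parental control tumors by edgeR. Of all tested genes, 2.25% passed in that contrast. Mural markers, with *Acta2* the most abundant, summed to 600 to 895 CPM in parental and 1023 to 1403 CPM in GR-KO control tumors, without overlap. In the cultures, which hold no host cells, the same list summed to 2564 to 5460 CPM. *Acta2* averaged 4297 CPM there and 756 CPM in tumors. The tumor cells themselves thus hold these transcripts, and the tumor sums of this list do not measure mural cells alone. Endothelial markers summed to 70.0 to 99.2 CPM in parental and 142 to 169 CPM in GR-KO control tumors, and macrophage markers to 3446 to 5024 CPM and 5139 to 8848 CPM, both also without overlap. Fibroblast markers summed to 7401 to 8815 CPM in parental and 4154 to 8086 CPM in GR-KO control tumors, which overlap, with means of 8282 and 5507 CPM. Under GC, 1 of 7 muscle markers was lower in GR-KO tumors, where 0.634% of all tested genes passed. Mural sums were 592 to 846 CPM in parental and 936 to 1555 CPM in GR-KO tumors, and endothelial sums were 45.1 to 66.4 CPM and 69.4 to 86.3 CPM.

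With GC in GR-KO tumors, where *Nkd1* was higher, edgeR called 5 fibroblast markers higher and 1 lower of 12. It called 2 of 8 endothelial, 2 of 8 T cell and 2 of 7 muscle markers lower. It also called 2 keratinocyte markers higher and 3 lower of 10, 1 of 8 macrophage markers higher and 1 of 7 melanocyte markers lower. Of all tested genes, 6.42% passed in both directions together. Mural (8 tested), adipocyte (6) and Schwann cell (6) markers gave 0 calls by edgeR, with 0, 0 and 1 at an unadjusted p under 0.05 and 0, 0 and 1 by DESeq2. Fibroblast markers summed to 4154, 4496, 5148, 8086 and 5650 CPM in GR-KO control tumors and to 11873, 8858, 12721, 7991 and 13073 CPM in GR-KO GC tumors, overlapping in replicate 4 of each group. Endothelial markers, with *Egfl7* the most abundant, summed to 142 to 169 CPM in GR-KO control tumors and 69.4 to 86.3 CPM in GR-KO GC tumors, without overlap. T cell markers, with *Cd2* the most abundant, summed to 201, 188, 133, 285 and 129 CPM in GR-KO control tumors and 70.7, 106, 82.3, 54.9 and 56.8 CPM in GR-KO GC tumors. Keratinocyte markers summed to 3213 to 6598 CPM and 1644 to 2809 CPM, also without overlap. GR-KO control replicate 4, which held the highest *Axin2* and *Sfrp4* of its group, stood apart with the highest T cell sum and, at 85.1 CPM, the highest adipocyte sum of the 20 tumors. Without that tumor, edgeR called 2411 genes for GC in GR-KO tumors in place of 1022, and *Nkd1* passed. In parental tumors, 1 of 10 keratinocyte markers was higher with GC (*Krt15*, log2 1.45) and no marker of the other 9 lists passed edgeR, with 20 of those at an unadjusted p under 0.05 and 5 called by DESeq2. Of all tested genes, 0.779% passed edgeR there and 14.1% had an unadjusted p under 0.05. Endothelial markers summed to 70.0 to 99.2 CPM with control cream and 45.1 to 66.4 CPM with GC there, without overlap.

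Likeness over the 20 tumors is given as a description, from deviations of log2(CPM + 1) from group means, in tumors that share their libraries and normalization. The genes most like *Nkd2* were *Larp4b* (Pearson r 0.83), *Insig2* (0.80) and *4930402H24Rik* (0.80), and those most like *Dkk3* were *Commd8* (0.78), *Xlr3c* (0.77) and *Nptn* (0.75). *Dkk2* was most like *Itpr2* (0.89), *Crebbp* (0.85) and *Ing5* (0.85), and *Lef1* most like *Vav2* (0.89), *Arrb1* (0.89) and *Eri3* (0.88). For the other secreted antagonists the 3 nearest were *5031414D18Rik*, *Zfp575* and *Zfp13* for *Sfrp1* (0.82 to 0.79), *Nae1*, *Mms22l* and *Pdhb* for *Sfrp2* (0.87 to 0.83), *Bmp2k*, *Necap1* and *Rgs5* for *Sfrp4* (0.83 to 0.82) and *Rnf130*, *Arhgap44* and *Zfp948* for *Wif1* (0.81 each). *Nkd1* was nearest to *Krt72*, *Mt4* and *Crym* (0.69 to 0.65) and *Axin2* to *Pgam2*, *Ift81* and *Zfp646* (0.83 to 0.79), both from sparse counts. Among the members themselves, the 45 pairs ran from -0.61 (*Dkk3* with *Lef1*) to 0.55 (*Dkk2* with *Sfrp1*), and *Nkd2* with *Dkk3* gave 0.51. Between members and marker lists, r ran from -0.64 (*Dkk2* with fibroblast markers) to 0.62 (*Sfrp2* with fibroblast markers). *Dkk3* with endothelial markers gave -0.63, and *Nkd1* with Schwann cell markers gave -0.61.

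In GRCm38, *Sfrp2*, *Lef1* and *Dkk2* are on chromosome 3, *Nkd1* and *Sfrp1* on chromosome 8, *Nkd2* and *Sfrp4* on chromosome 13, *Dkk3* on chromosome 7, *Wif1* on chromosome 10 and *Axin2* on chromosome 11. The 3′ end of *Sfrp2* is overlapped by the antisense gene *Gm26771*, which has its own counts, and the strand setting of the counting is not given in the sources used here. RefSeq promoters (GRCm38.p6) matched 7 of 10 members, with 10 promoters of 300 bases, 4 of them of *Lef1*. None of these 10 promoters holds the TCF/LEF cores CTTTGAT or CTTTGAA, or the GR element built of GAACA, any 3 bases and TGTTC, on either strand. Of all 32851 promoters, 3.73% hold CTTTGAT, 5.14% CTTTGAA and 0.0578% the GR element. A search for GAACA alone on both strands, added after the data were seen, found it in 41.7% of all promoters. Among the members it was found in promoters of *Dkk2*, *Nkd1* and *Axin2* and in some of *Lef1*. The promoters of *Sfrp2*, *Wif1* and *Nkd2* held none. The 250 bases before the gene start are shown for *Nkd2* and *Dkk2*, the members called for GC that had counts in every sample. The call of *Nkd2* decided only which sequence is shown, and nothing is read from it. GAACA or its reverse complement is in capitals, on the gene's strand, from chr13:73847632-73847881 and chr3:132085042-132085291. *Dkk2* holds a match on the opposite strand and *Nkd2* holds none in this window.
Nkd2: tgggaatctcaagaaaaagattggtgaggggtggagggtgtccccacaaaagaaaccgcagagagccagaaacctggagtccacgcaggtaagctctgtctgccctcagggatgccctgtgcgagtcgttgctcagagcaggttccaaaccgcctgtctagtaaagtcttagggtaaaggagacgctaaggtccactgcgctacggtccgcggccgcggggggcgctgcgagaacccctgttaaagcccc
Dkk2: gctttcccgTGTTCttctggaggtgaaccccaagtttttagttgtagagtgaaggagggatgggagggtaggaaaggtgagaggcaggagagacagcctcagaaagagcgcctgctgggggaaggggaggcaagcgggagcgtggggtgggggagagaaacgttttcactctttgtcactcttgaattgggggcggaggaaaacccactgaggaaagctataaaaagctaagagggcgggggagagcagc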

How the data were processed

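Bulk 3′ mRNA sequencing measured gene expression in 20 whole tumors and 11 cell cultures, 31 samples in 8 groups. The deposited table holds integer read counts per gene, which the authors made from QuantSeq 3′ FWD libraries with Trim Galore 0.6.5, STAR 2.6.1d and featureCounts on GRCm38 (Ensembl 75). The featureCounts version and strand setting are not given in the sources used here, and the submitters' processing notes name edgeR, DESeq2 and mm10. All per-sample columns were mapped to a sample (0 unmapped), and 37607 of 39179 gene IDs were found in GENCODE.

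The members and lists were chosen with earlier results of these data known. Tumors and cultures were fitted separately in R 4.3.3 with edgeR 4.0.16 (TMM factors, quasi-likelihood F test, all 4 groups sharing a spread estimate), on genes that reached 0.5 CPM in 3 or more samples of the experiment. P values were adjusted by Benjamini-Hochberg (BH) over all tested genes, and called means an adjusted p under 0.05 with a fold of at least 1.5. Levels are TMM-scaled CPM. Exact two-sided permutation tests used mean log2(CPM + 1). The tumor genotype contrasts, which chose the members, come from the same fit and are given without a p for the members. The fits were tested on simulated data.

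Alternatives were DESeq2 1.42.0, its size factors, no filter, at least 10 counts in every sample, no minimum fold, a replicate block, only the groups compared, leaving out each sample, and a pseudocount of 0.1 in place of 1. DESeq2 was run first with an alpha of 0.05 in its independent filtering. The default alpha of 0.1 replaced it after the results had been seen and an all-gene count had been set beside one reported from these data. Both are given, the choice between them was made after seeing the data, and DESeq2 counts in the report use the default.

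Genes named are all members, each pathway-list gene called in a comparison, and the 3 genes most like each member by Pearson r among those with a mean of at least 1 CPM over the 20 tumors. Marker genes, the range of pairs among members and the r values with marker lists were named after their values were seen. Promoter sequences come from RefSeq. Figures were drawn with matplotlib 3.10.9, and other values were computed in Python 3.11.15 with numpy 2.4.6, pandas 2.3.3 and scipy 1.17.1. Protein sequences were not used here.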

Additional observations from a re-analysis of the deposited data

Results flagged for a closer look

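Of 39 groups of 5 tumors tested for a sample far from the others, 2 held such a sample, where chance flags about 1 in 20 groups. *Wif1* was 2.68 CPM in GR-KO GC tumor replicate 5, against 0.892 CPM in the nearest tumor of that group. *Axin2* was 0.618 CPM in GR-KO control tumor replicate 4, against 0.0733 CPM in the nearest. The cause of either was not tested.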

How the results depend on the processing

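For GC in parental tumors the count of members called went from 0 to 1 with DESeq2 at its default alpha and to 1 at an alpha of 0.05, the gene being *Nkd2*, from whose place nothing is read, and stayed at 0 in all 20 fits that left out a tumor. For GC in GR-KO tumors it went from 2 to 1 with DESeq2 at an alpha of 0.05, its first setting, where *Nkd1* had no adjusted p. The count also went to 1 with at least 10 counts in every sample (*Nkd1* is then filtered out) and to 1 with only the groups compared. Leaving out each tumor it ran from 1 to 3. DESeq2 at its default alpha, which replaced 0.05 after the results had been seen, gave 2, so the count by DESeq2 depends on alpha. For GC in parental cells it went from 1 to 0 with only the groups compared and ran from 0 to 1 leaving out each culture. Between genotypes in GC cultures it went from 2 to 1 with at least 10 counts in every sample and to 1 with only the groups compared, since *Dkk3* is then filtered out. The cause of the other changes was not tested. The remaining 160 counts under alternatives stayed within 1.5 times the first, no fold change of a called member reversed, and all 20 exact p of the tumor GC comparisons kept their side of 0.05 with a pseudocount of 0.1. With cultures the exact p cannot fall under 0.05, so nothing is read from it.

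Counts of all genes called moved more. With DESeq2 (default alpha, then 0.05) they went from 124 to 376 and 378 in parental tumors, 1022 to 1756 and 1779 in GR-KO tumors, 31 to 784 and 817 for the tumor difference, 358 to 1001 and 1004 and 101 to 293 and 289 for the genotype contrasts under control cream and GC, 110 to 251 and 251 in parental cells, and 37 to 128 and 128 for the culture difference. With only the groups compared they were 391 in GR-KO tumors, 159 between genotypes under control cream, 59 in parental cells and 230 between genotypes in GC cultures (695 in the first fit). With a replicate block they were 144 for the tumor difference, 160 between genotypes in GC tumors and 63 in parental cells, and the members called were unchanged in number. Without a filter they were 49 for the tumor and 64 for the culture difference, and with at least 10 counts in every sample 66 for the tumor difference and 661 (from 1030) and 445 (from 695) between genotypes in DMSO and GC cultures. Leaving out each sample they ran from 60 to 178 in parental tumors, 303 to 2411 in GR-KO tumors, 0 to 1284 for the tumor difference, 61 to 1762 and 40 to 149 between tumor genotypes, 31 to 132 in parental cells, 17 to 43 for the culture difference, and 594 to 1175 and 322 to 842 between culture genotypes. Depth limits the members at or under the floor of 3 counts, which were *Nkd1*, *Axin2* and *Sfrp4* in some tumors, and these with *Dkk3*, *Sfrp1*, *Sfrp2* and *Wif1* in some or all cultures.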
